A study of Homo sapiens with 6 samples.

Results

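Chromatin accessibility in H1 human pluripotent stem cells was compared between shHNRNPU #2, the second of a pair of short hairpin RNAs against HNRNPU, and shLUC, a control hairpin against luciferase, a gene that human cells lack. H1 is an established human embryonic stem cell line. It was grown in mTeSR1 medium on Matrigel, and in every group, the control included, the hairpin was delivered by lentivirus and transduced cells were selected with puromycin. ATAC-seq, which marks open chromatin by where a transposase can insert, gave 2 libraries for shHNRNPU #2 and 2 for shLUC, out of 6 in the series. The other 2 libraries carry shHNRNPU #1 and were used here only as a look-up. The labels name neither the time between infection and harvest nor separate cultures for the repeats, so that the spread between repeats may be technical. The deposited values are summits, the points of strongest signal within peaks called library by library. They hold no read counts, so depth is unknown, a missing summit means only that none was called, and the reduction of HNRNPU itself is not measured. The HNRNPU gene had 2 summits at its start in each of the 4 libraries.

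The members are genomic loci. Summits of the 4 libraries were pooled, and the summit of highest rank within its own library was taken first and absorbed all others within 250 bp, until none was left. This gave 104339 loci, of which 43327 were held by 1 library, 18429 by 2, 14117 by 3 and 28466 by all 4. A locus was called lost if both shLUC libraries and neither shHNRNPU #2 library held it, which was so for 4963 loci. It was called gained in the reverse case, which was so for 2885 loci. Among loci held by both shLUC libraries, 12.0% were lost. Among loci held by both shHNRNPU #2 libraries, 7.69% were gained. Both calls are patterns of called summits and not tested changes. The other 10581 loci of 2 libraries were held by 1 library of each group.

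HNRNPU, also called SAF-A, is an abundant nuclear protein that binds RNA and DNA and belongs to the nuclear matrix, the insoluble protein and RNA scaffold of the nucleus. It is known for keeping transcribed chromatin decompacted, for splicing and for holding the XIST RNA on the inactive X chromosome. Mammalian chromosomes alternate between gene-dense stretches that are mostly open and gene-poor stretches that are mostly compact and often touch the nuclear lamina. The loci are therefore described first by the genes around them.

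The shLUC lists were longer and lay farther from genes. With shLUC, 62191 summits were called in repeat 1 and 61373 in the other repeat. With shHNRNPU #2, 58414 and 52168 were called. The groups did not overlap, with a mean difference of -6491 summits for shHNRNPU #2 minus shLUC. With 2 libraries against 2, an exact permutation test has 6 assignments and a two-sided p of 0.33 at the smallest, so none of the library comparisons here can pass 0.05. The share of summits within 2000 bp of a protein-coding gene start was 26.6% and 27.2% with shLUC and 28.5% and 31.5% with shHNRNPU #2. The mean number of protein-coding genes with their midpoint within 500 kb of a summit, called gene density below, was 10.1 and 10.3 with shLUC and 10.7 and 11.3 with shHNRNPU #2. Neither measure overlapped between groups, by 3.06 percentage points for the share near starts and 0.82 genes for the density (exact permutation p = 0.33 for both). Library shHNRNPU #2 repeat 2 has the shortest list and the most extreme value of each measure, and without it the differences were 1.58 points, 0.50 genes and -3368 summits.

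Since a shorter list tends to keep the strongest summits, which lie near gene starts, every list was also cut to its best 52168 summits. The share near starts was then 29.8% and 30.3% with shLUC and 30.6% and 31.5% with shHNRNPU #2, a difference of 0.95 points (exact permutation p = 0.33). Gene density was 10.5 and 10.7 with shLUC and 10.9 and 11.3 with shHNRNPU #2, a difference of 0.50 genes (exact permutation p = 0.33). The groups still did not overlap, but the gap near starts was narrower than the 3.06 points of the lists as deposited. With lists of equal size, 3770 loci were lost, 10.0% of those in both shLUC libraries, and 3165 were gained, 8.73% of those in both shHNRNPU #2 libraries.

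**Figure D1:**
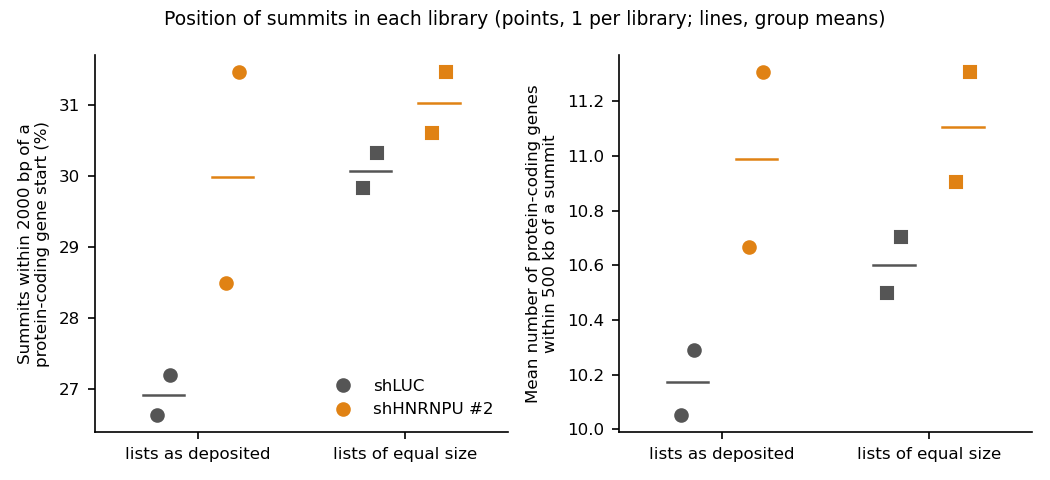
Share of summits within 2000 bp of a protein-coding gene start (left, in percent) and mean number of protein-coding genes within 500 kb of a summit (right), 1 point per library and a line at each group mean, for the lists as deposited (circles) and cut to 52168 summits (squares). Both shHNRNPU #2 libraries lie above both shLUC libraries in each case, and the axes do not start at 0.

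Few of the lost and gained loci were at gene starts, and those that were seldom stood alone. The sequences just before the starts of 6 genes are shown because these are the strongest lost and gained loci in a promoter, within the 250 bases before a start, where the lacking libraries had no summit nearer than 1000 bp. Each runs 5′ to 3′ on the gene's strand, ends 1 base before the RefSeq start (GRCh38.p14), and has its CG dinucleotides in capitals. The lost ones belong to FLACC1 (chr2:201357346-201357595, minus strand), CTTNBP2, which encodes a cortactin-binding protein of neurons (chr7:117872221-117872470, minus strand), and HIVEP2, a zinc finger transcription factor (chr6:142945177-142945426, minus strand). The gained ones belong to MED27, a Mediator subunit (chr9:132079868-132080117, minus strand), FGF11, an intracellular fibroblast growth factor homologue (chr17:7440518-7440767, plus strand), and USP54, a gene of the ubiquitin protease family (chr10:73601622-73601871, minus strand).
FLACC1, lost: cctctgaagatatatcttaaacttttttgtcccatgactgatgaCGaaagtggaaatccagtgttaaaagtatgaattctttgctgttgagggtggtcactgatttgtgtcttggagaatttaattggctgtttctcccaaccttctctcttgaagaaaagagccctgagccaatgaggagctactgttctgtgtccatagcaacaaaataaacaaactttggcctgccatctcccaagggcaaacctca
CTTNBP2, lost: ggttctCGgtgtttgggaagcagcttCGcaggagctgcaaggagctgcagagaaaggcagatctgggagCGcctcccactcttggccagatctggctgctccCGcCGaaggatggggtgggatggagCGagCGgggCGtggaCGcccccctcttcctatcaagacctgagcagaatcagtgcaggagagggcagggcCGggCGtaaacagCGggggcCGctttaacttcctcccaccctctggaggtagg
HIVEP2, lost: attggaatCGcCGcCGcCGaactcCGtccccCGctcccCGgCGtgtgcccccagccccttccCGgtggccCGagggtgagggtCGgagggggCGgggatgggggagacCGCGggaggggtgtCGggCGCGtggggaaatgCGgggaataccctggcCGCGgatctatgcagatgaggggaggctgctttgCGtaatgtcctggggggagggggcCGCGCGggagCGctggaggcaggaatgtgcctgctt
MED27, gained: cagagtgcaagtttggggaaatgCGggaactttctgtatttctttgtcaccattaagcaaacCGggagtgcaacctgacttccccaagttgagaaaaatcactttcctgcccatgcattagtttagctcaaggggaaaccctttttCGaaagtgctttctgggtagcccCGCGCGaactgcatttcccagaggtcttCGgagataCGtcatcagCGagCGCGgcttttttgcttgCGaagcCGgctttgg
FGF11, gained: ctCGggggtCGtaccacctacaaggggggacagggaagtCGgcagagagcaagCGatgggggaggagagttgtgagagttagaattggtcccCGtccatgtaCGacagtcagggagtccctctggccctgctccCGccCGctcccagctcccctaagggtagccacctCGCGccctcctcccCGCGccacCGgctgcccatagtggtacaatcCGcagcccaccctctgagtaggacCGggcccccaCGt
USP54, gained: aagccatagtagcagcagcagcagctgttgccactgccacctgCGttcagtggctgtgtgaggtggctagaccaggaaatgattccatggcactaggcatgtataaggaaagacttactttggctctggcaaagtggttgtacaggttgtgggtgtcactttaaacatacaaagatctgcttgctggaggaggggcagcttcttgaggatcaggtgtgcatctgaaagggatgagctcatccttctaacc

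The summits of these loci lay 66, 69 and 49 bases before the starts of FLACC1, CTTNBP2 and HIVEP2, and 2, 76 and 16 bases before those of MED27, FGF11 and USP54. The score of a summit, taken as the −log10 of its peak's q-value, was 19.5 and 17.2 in shLUC repeats 1 and 2 for FLACC1, and no summit was called in either shHNRNPU #2 library. For CTTNBP2 the scores were 20.5 and 12.9, and for HIVEP2 13.7 and 13.0. In shHNRNPU #2 repeats 1 and 2, MED27 had scores of 8.19 and 11.1, FGF11 of 7.84 and 10.8, and USP54 of 11.1 and 7.27, with no shLUC summit. The 6 sequences are unlike each other in base composition. FLACC1 and USP54 have 1 CG each and HIVEP2 has 25, with a GC content of 41.6%, 50.0% and 71.6%.

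Over all RefSeq promoter windows (250 bases before to 50 after a start) that had a locus within 250 bp of the start, GC content did not separate lost from gained loci. Its median was 69.3% in the 162 windows at lost loci, 69.3% in the 121 at gained loci and 66.3% in the 8062 at loci of all 4 libraries. The CG dinucleotide, counted as observed over expected, had medians of 0.76, 0.80 and 0.859 in the same order. The letters CCAAT, on either strand, occurred in 27.8% of windows at lost loci, 25.6% at gained loci, 40.8% at loci of all 4 libraries and 36.3% of all 15843 windows. GGGCGG occurred in 69.8%, 71.1%, 76.4% and 61.0%. TGACGTCA, the core of the cAMP response element, occurred in 2 windows at lost loci (1.23%), 7 at gained loci (5.79%), 3.94% at loci of all 4 libraries and 2.68% of all windows. The share at lost and gained loci was 5.56% and 5.79% for TATAAA. For the letters CACGTG it was 8.64% and 9.09%. For the letters GCGCATGC it was 2.47% and 4.13%. No searched motif contains another, and a match is only a match of letters.

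The lost share was highest where genes are few. Loci were put into 5 classes of about equal size by the number of protein-coding genes within 500 kb, with bounds at 2, 5, 8 and 15 genes. In the lists as deposited, 19.6% of loci held by both shLUC libraries were lost in the poorest class (1462 of 7454), then 14.1%, 11.7%, 9.45% and 6.79% in the densest class (644 of 9486). The share of loci held by both shHNRNPU #2 libraries that were gained was 8.29%, 8.58%, 7.96%, 7.16% and 6.95% in the same order. Of the calls with 1 library left out, the gained share fell most from the poorest to the densest class without shHNRNPU #2 repeat 2. Without shHNRNPU #2 repeat 2 it was 28.1% in the poorest and 17.6% in the densest class, beside 28.3% and 14.2% lost, and without repeat 1 it was 20.8% and 17.1%, beside 34.5% and 14.2% lost. Without shLUC repeat 1 or 2 the gained share was 17.9% and 13.9% or 16.8% and 14.7%, beside 39.5% and 17.5% or 40.8% and 16.7% lost. With lists of equal size the lost share was 16.8%, 11.8%, 9.71%, 7.96% and 5.70%, and the gained share 9.85%, 9.51%, 8.99%, 8.17% and 7.81%. Lost loci thus outnumbered gained ones 1086 to 545 in the poorest class, and gained loci outnumbered lost ones 724 to 508 in the densest. Where no protein-coding gene lay within 500 kb, 22.6% of loci were lost and 7.22% gained in the lists as deposited. The Wilson 95% interval of the lost share in the lists as deposited was 18.7% to 20.5% in the poorest class and 6.30% to 7.31% in the densest. Like all intervals here these cover counting of loci only, not the spread between libraries.

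**Figure D2:**
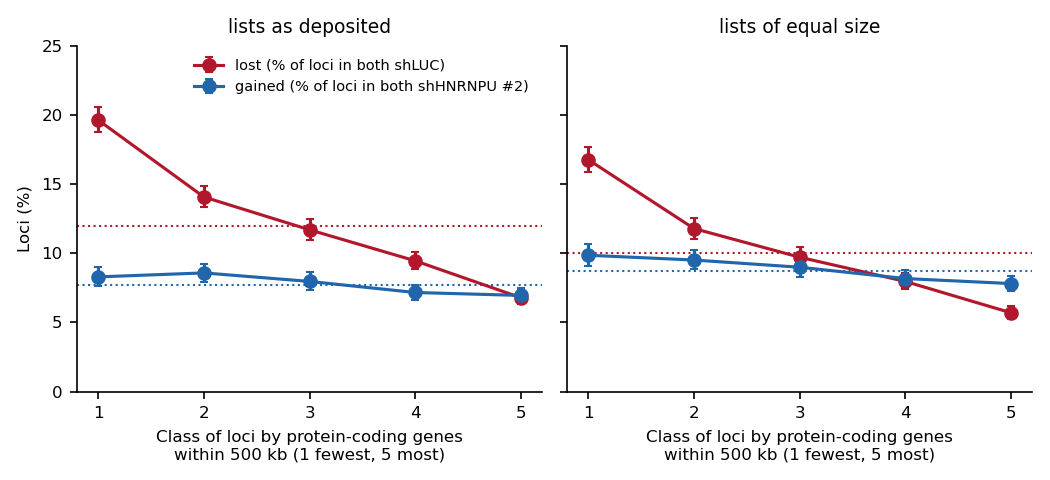
Lost loci (red, in percent of loci held by both shLUC libraries) and gained loci (blue, in percent of loci held by both shHNRNPU #2 libraries) by class of gene density, for lists as deposited (left) and of equal size (right). Bars are Wilson 95% intervals over loci and dotted lines the shares over all loci. The lost share goes from 19.6% to 6.79% on the left and from 16.8% to 5.70% on the right.

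The gradient was present away from gene starts, where 20.8% of loci were lost in the poorest class and 9.98% in the densest, against 8.33% and 10.3% gained. Within 2000 bp of a start, 46 of 655 loci (7.02%) were lost in the poorest class and 208 of 5117 in the densest. There the gained share fell too, from 52 of 650 loci to 212 of 5137 (4.13%). Near starts the gradient was therefore not limited to lost loci. The gradient of the lost share was present among loci of like strength. Of 4 classes by score, in the weakest class of loci held by both shLUC libraries, 40.0% were lost in the poorest class and 21.5% in the densest, and in the next class by score 18.8% and 7.99%. In the weakest class of loci held by both shHNRNPU #2 libraries, 21.4% were gained in the poorest class and 24.9% in the densest. Strength itself weighed heavily, as 30.8% of the weakest class of shLUC loci and 0.48% of the strongest were lost. The share of all summits that lay in the poorest class was 20.9% and 20.0% with shLUC and 18.4% and 16.1% with shHNRNPU #2 in the lists as deposited, and 19.4%, 18.6%, 17.8% and 16.1% in lists of equal size (exact permutation p = 0.33 for both).

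Libraries of the same group also differed along gene density. Each library was set against each other library with lists of equal size, and the share of its loci that the other lacked was taken in the poorest and densest classs. Of shLUC loci, shHNRNPU #2 libraries lacked 41.5% to 46.0% in the poorest class and 21.1% to 23.0% in the densest, a gap of 18.5 to 24.9 points over the 4 pairs. Between the shLUC libraries the gap was 15.4 points for repeat 1 against repeat 2 and 10.7 points in the other direction. Between the shHNRNPU #2 libraries it was 18.8 points for repeat 1 against repeat 2 and 8.62 points in the other direction. Of shHNRNPU #2 loci, shLUC libraries lacked fewer in the poorest class, with gaps of 5.98 to 13.7 points. Gaps between the groups in the lost direction therefore overlapped the largest gap within a group. Loci lacked by any second library, from either group, were more often in gene-poor stretches.

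**Figure D3:**
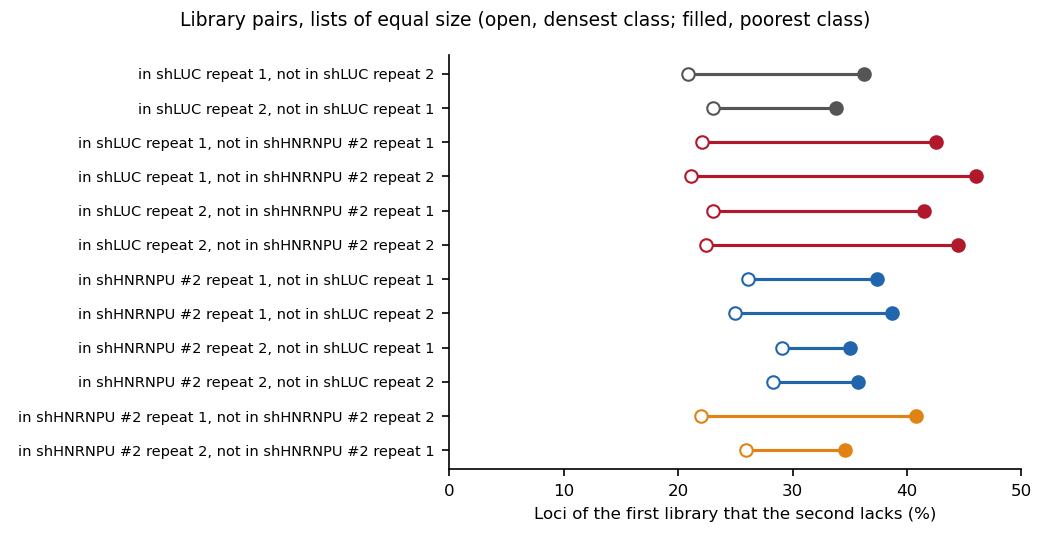
For each ordered pair of libraries, with lists of equal size, the percent of loci of the first library that the second lacks in the densest class (open points) and the poorest class (filled points) by gene density. Grey, both shLUC. Red, shLUC loci lacking in shHNRNPU #2. Blue, the reverse. Orange, both shHNRNPU #2. The red gaps are 18.5 to 24.9 points wide, and the widest gap within a group is 18.8 points.

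Loci at gene starts were kept most often. Within 2000 bp of a protein-coding gene start, 4.52% of shLUC loci were lost and 4.27% of shHNRNPU #2 loci gained. Inside protein-coding genes away from starts the shares were 16.3% and 10.5%, at loci in long non-coding RNA genes only 14.3% and 9.06%, and at intergenic loci 15.6% and 8.99%. Of all lost loci 12.5% were near a start, of gained loci 20.2%, and of loci in all 4 libraries 40.4%. This order of lost and gained loci rests on shHNRNPU #2 repeat 2, since without that library, when 1 remaining shHNRNPU #2 library defines both calls, the shares were 17.1% of lost and 13.9% of gained loci. The densest class held 13.0% of lost and 22.9% of gained loci, and without that library 15.9% and 16.6%.

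The lost share was highest in long genes. In bodies of genes under 50 kb, 11.8% of shLUC loci were lost, against 14.7% at 50 to 200 kb, 18.4% at 200 to 500 kb and 21.0% over 500 kb. The gained share in the same classes was 10.6%, 11.2%, 10.7% and 8.50%. With lists of equal size the lost share was 10.6%, 12.8%, 15.6% and 18.1%, and the gained share 11.9%, 12.6%, 12.0% and 9.58%. Among the 5 genes with the most lost loci were PTPRD, a receptor tyrosine phosphatase of synapses, and CNTNAP2, a neurexin-like adhesion protein. DLG2, a scaffold of the postsynaptic density, and DAB1, an adaptor of reelin signalling, were also among them. Of loci in both shLUC libraries, PTPRD lost 8 of 17, CNTNAP2 7 of 33, DLG2 7 of 24 and DAB1 6 of 24. These stand beside 21.0% over all bodies of genes over 500 kb. These 4 genes are 1552 to 2304 kb long. PTPRD had 17 loci in both shLUC libraries and 7 in both shHNRNPU #2 libraries, 1 of them gained. CNTNAP2, DLG2 and DAB1 had 1, 2 and 3 gained loci. In equal lists PTPRD had 4 lost and no gained loci. There CNTNAP2 had 5 lost and 2 gained, DLG2 4 and 3, and DAB1 3 and 3.

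The genes with the most gained loci were fewer and had fewer of them. Of loci in both shHNRNPU #2 libraries, GRAMD1B, a cholesterol transporter between membranes, had 5 of 11 gained. RBFOX1, a splicing regulator of neurons and muscle, had 4 of 19, and CAMTA1, a calmodulin-binding transcription activator, 3 of 17. CNIH3, an auxiliary protein of AMPA receptors, and CPEB3, a regulator of translation, had 3 of 6 each. These stand beside 7.69% over all loci, and the genes were picked for their counts. GRAMD1B had no lost locus among its 9 loci in both shLUC libraries, and CPEB3 none among 3. RBFOX1 had 4 lost loci beside its 4 gained ones. In equal lists GRAMD1B had 4 gained loci, RBFOX1 3 beside 5 lost, CAMTA1 2, CNIH3 1 and CPEB3 3. Over all 13213 protein-coding genes with a locus in their span, 1912 had a lost locus, 1374 a gained one and 408 both. There were 116 genes with 3 or more lost loci and 23 with 3 or more gained loci. These counts stand beside 4963 lost loci (12.0%) and 2885 gained loci (7.69%) in all.

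By chromosome, the lost share was lowest on the gene-dense chromosomes 19, 22 and 17, with 5.44%, 6.92% and 7.46%, and highest among autosomes on 13, 4 and 18, with 16.1%, 15.1% and 14.6%. The gained share was highest on chromosomes 22, 21 and 10, with 10.0%, 9.43% and 9.03%, and lowest among autosomes on 13, 19 and 7, with 6.67%, 6.79% and 6.96%. Chromosomes 22, 19 and 17 had fewer lost than gained loci, with 45 against 68, 90 against 120 and 125 against 128. All other autosomes had more lost than gained loci, up to 177 against 61 on chromosome 13. In equal lists chromosome 13 had 132 against 70 and chromosome 22 had 31 against 83, but the direction turned on chromosomes 10 (155 against 161), 16 (93 against 109), 20 (74 against 88) and 21 (32 against 38), and chromosome 15 had 102 of each. Among windows of 1 Mb, chr17:8000001-9000000 held the most lost loci, 8 of 42 in both shLUC libraries, and has 26 protein-coding genes, among them PER1, VAMP2 and AURKB. The window chr8:11000001-12000000, which holds GATA4, also had 8 lost loci, of 34. The window chr1:94000001-95000000, with ABCA4 and F3, had 7 of 27. Of loci in both shHNRNPU #2 libraries, these windows had 3 of 35, 5 of 27 and 1 of 17 gained, beside 7.69% over all loci. Gained loci were most frequent in chr1:6000001-7000000, with 10 of 42 and genes such as CHD5 and ESPN. The others were chr6:28000001-29000000, a stretch of zinc finger genes, with 10 of 54, and chr20:63000001-64000000, with 8 of 48. Of loci in both shLUC libraries, these windows had 1 of 30, 4 of 58 and 4 of 36 lost, beside 12.0% over all loci.

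**Figure D4:**
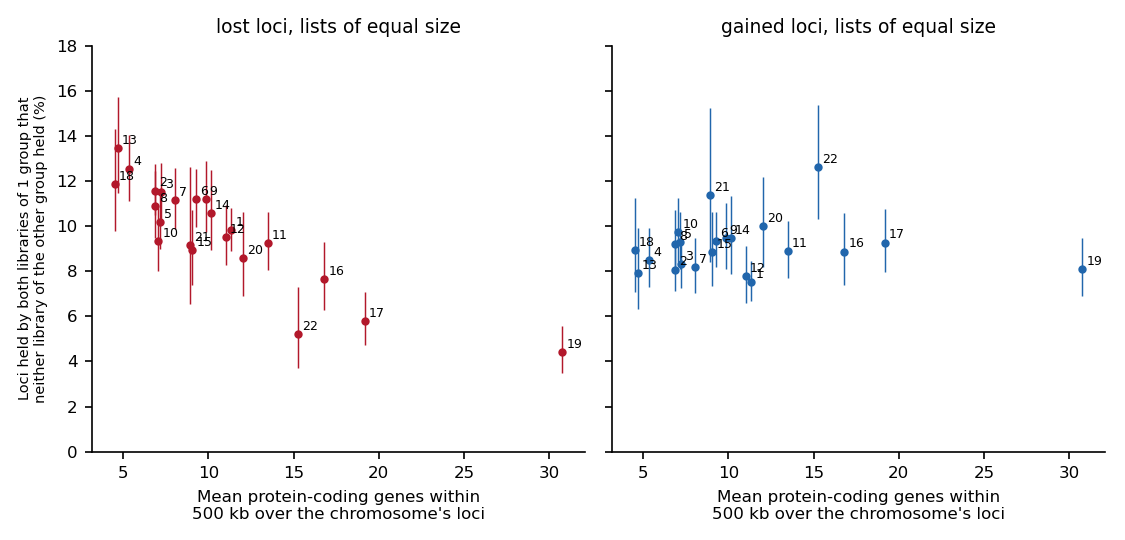
Lost (left) and gained (right) loci in percent for each autosome, with lists of equal size, against the mean number of protein-coding genes within 500 kb of the chromosome's loci. Bars are Wilson 95% intervals over loci, and numbers name chromosomes. Chromosome 13 has 132 lost and 70 gained loci, and chromosome 22 has 31 and 83.

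Among the 14 gene lists, long genes of synapses and cell adhesion had the highest lost share, and of the gene families only olfactory receptors, with 6 of 21 (28.6%), were above it. The lists were chosen with earlier results of the data known, so that their order is a description. Of the 36 genes, 35 had a lost locus in the gene or within 2000 bp of it and 14 a gained one. Of 457 loci in both shLUC libraries, 119 were lost (26.0%, beside 12.0% over all loci and 21.0% in bodies of genes over 500 kb), and of 309 loci in both shHNRNPU #2 libraries, 21 were gained (6.80%, beside 7.69%). After equalizing the lists, 82 of 380 were lost (21.6%) and 27 of 295 gained (9.15%). With 1 library left out, which loosens the calls for all loci, the lost share of the list was 35.6% to 44.5% and the gained share 15.7% to 25.9%, the latter without shHNRNPU #2 repeat 2. LSAMP, an adhesion protein of the limbic system, lost 6 of its 11 loci, PCDH9, a protocadherin, 4 of 7, and ROBO2, a receptor of axon guidance, 5 of 18, none with a gained locus. In equal lists these were 5 of 9, 1 of 3 and 2 of 14. DSCAM, an adhesion protein of neurons, was the one member with no lost locus, with 5 in both shLUC libraries. CSMD1, a complement regulator of neurons, had 2 lost and 2 gained loci. The cadherin family, which shares members with this list, had 16 of 74 loci lost and 5 of 56 gained.

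**Figure D5:**
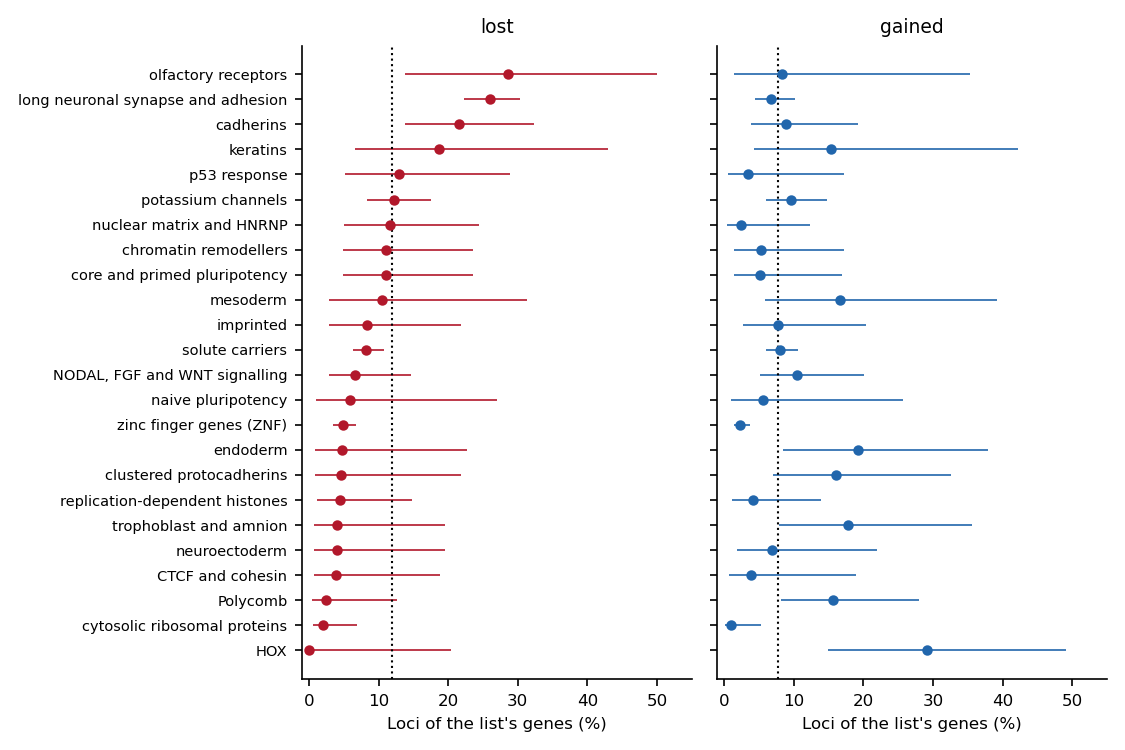
Lost loci in percent of loci in both shLUC libraries (left) and gained loci in percent of loci in both shHNRNPU #2 libraries (right) in the genes of each list or family, or within 2000 bp of them, lists as deposited. Bars are Wilson 95% intervals over loci, and dotted lines mark 12.0% and 7.69%. Long neuronal genes have 26.0% lost and 6.80% gained, and HOX genes 0 of 15 lost and 7 of 24 gained.

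Developmental regulators lay at the other end. The HOX genes, homeobox regulators of body axis identity, had no lost locus among 15 in both shLUC libraries and 7 gained among 24 in both shHNRNPU #2 libraries (29.2%, Wilson 14.9% to 49.2%). In equal lists 1 of 16 was lost and 7 of 22 were gained. The gained HOX loci, named after their counts were seen, lay among others at HOXD10, HOXA3, HOXC13, HOXB1, HOXB4 and HOXB9. HOXD10 had scores of 10.6 and 4.17 in shHNRNPU #2 repeats 1 and 2 and HOXB1 of 5.12 and 11.2. The loci at HOXA3, HOXC13, HOXB4 and HOXB9 had scores of 2.80 to 5.83, under the medians of 6.91 and 8.43 over all summits of these libraries. The shLUC libraries had a summit at 312 bp from the HOXA3 locus and none nearer than 3888 bp to the HOXD10, HOXC13, HOXB1, HOXB4 and HOXB9 loci.

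Polycomb genes, whose products silence developmental genes through histone methylation and ubiquitination, had 1 of 41 loci lost and 8 of 51 gained (15.7%, Wilson 8.17% to 28.0%), beside 12.0% and 7.69% over all loci. In equal lists these counts were 0 of 40 and 5 of 47 (10.6%, Wilson 4.63% to 22.6%), beside 10.0% and 8.73% over all loci. The gained share was then near that over all loci. At JARID2, a subunit of Polycomb repressive complex 2, a gained locus 80 bp from the start had scores of 19.2 and 16.4, with a shLUC summit at 372 bp. At PHC2, a subunit of Polycomb repressive complex 1, a gained locus inside the gene (chr1:33342375) had scores of 12.5 and 17.6, with the nearest shLUC summit at 7358 bp. AEBP2 and JARID2 had 2 gained loci each, and BMI1, RBBP7 and RING1 had 1 each with scores of 2.77 to 7.07.

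Marker genes of differentiated lineages had 1 or 2 lost loci per list, beside 12.0% lost and 7.69% gained over all loci. The endoderm list had 1 of 21 lost, at HHEX, and 5 of 26 gained, at AFP, FOXA1, FOXA2 and GATA4. The mesoderm list had 2 of 19 lost (10.5%), both at HAND2, and 3 of 18 gained, at HAND2, MEOX1 and TWIST1. The list of trophoblast and amnion genes had 1 of 25 lost, at KRT8, and 5 of 28 gained, at GATA3, KRT8, TFAP2B and TP63. The neuroectoderm list had 1 of 25 lost, at NES, and 2 of 29 gained (6.90%), 1 of them at SIX3. The FOXA2 locus, at a pioneer factor of endoderm, had scores of 4.10 and 5.68, and one at TP63, a regulator of epithelial stem cells, had 8.49 and 12.0 with a shLUC summit at 263 bp. In shHNRNPU #2 repeats 1 and 2, FOXA1 had scores of 4.68 and 1.93, GATA3 of 1.89 and 2.72, and AFP of 2.31 and 6.82. The GATA4 loci had 5.69 and 4.84, and 2.36 and 2.44. Medians over all summits of these libraries were 6.91 and 8.43. Of the gained loci in these 4 lists, only the TP63 locus with 8.49 and 12.0 was above both medians. After equalizing the libraries the 4 gene lists had 5, 3, 4 and 1 gained loci in the same order and 1, 0, 1 and 1 lost ones. All of these gained shares rest on 1 to 5 loci.

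Genes of pluripotency were called about as often as all loci. Core and primed pluripotency genes had 5 of 45 loci lost, at NANOG, SOX2, DNMT3B, LIN28B and OTX2, and 2 of 39 gained, at DNMT3B and ZFP42, which is 11.1% and 5.13% beside 12.0% and 7.69% over all loci. At NANOG, a transcription factor of the pluripotent state, a locus 51 bp from the start had scores of 15.5 and 7.77 with shLUC and no shHNRNPU #2 summit within 1585 bp. NANOG kept a summit within 2000 bp of its start in all 4 libraries, with best scores of 15.5 and 7.77 with shLUC and 12.1 and 18.4 with shHNRNPU #2, which overlap. At SOX2 the lost locus, 69 bp from the start, had scores of 7.05 and 4.62 and a shHNRNPU #2 summit at 955 bp. In LIN28B, a repressor of let-7 microRNAs, a locus 57500 bp from the start had scores of 12.8 and 8.56 and no shHNRNPU #2 summit within 45289 bp. DNMT3B, a DNA methyltransferase, had a lost locus with scores of 5.29 and 4.16 at 1186 bp from a start and a gained one with scores of 9.92 and 9.76 in the gene. Naive pluripotency genes had 1 of 17 lost, at FGF4, and 1 of 18 gained, at KLF2, where the scores were 7.36 and 6.16 at 98 bp from the start. In equal lists the naive genes had 0 of 14 lost and 2 of 17 gained.

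Genes of the nuclear matrix and the HNRNP family had 5 of 43 loci lost and 1 of 42 gained, and 11.6% lost is near the 12.0% over all loci. Among the lost loci were those at HNRNPD, with scores of 8.14 and 6.76, LMNA, which encodes lamins A and C, and SATB1, an organiser of chromatin at matrix attachment regions, with scores of 2.31 and 4.84. The gained locus was at EMD, which encodes emerin of the inner nuclear membrane, and lay 148 bp from the start with scores of 33.1 and 38.5 and a shLUC summit at 323 bp. CTCF and cohesin genes had 1 of 26 lost, at STAG1, and 1 of 26 gained, at PDS5A. Chromatin remodellers had 5 of 45 lost, at ARID1B, CHD1, CHD2 and SMARCA2, and 2 of 38 gained, both at SMARCA2, an ATPase of the BAF complex. Genes of NODAL, FGF and WNT signalling had 5 of 75 lost and 7 of 67 gained, those of the p53 response 4 of 31 and 1 of 29, and imprinted genes 3 of 36 and 3 of 39. The lost shares of the remodellers (11.1%) and the p53 list (12.9%) were also near that over all loci. Cytosolic ribosomal protein genes had 2 of 102 loci lost and 1 of 102 gained, beside 12.0% and 7.69% over all loci. Within 2000 bp of any protein-coding gene start, 4.52% were lost and 4.27% gained. In the strongest of the 4 classes by score, these shares near starts were 0.34% and 0.45%. Zinc finger genes had 33 of 683 lost and 15 of 654 gained.

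The remaining families were olfactory receptors with 6 of 21 lost and 1 of 12 gained, keratins with 3 of 16 and 2 of 13, clustered protocadherins with 1 of 22 and 5 of 31, replication-dependent histones with 2 of 45 and 2 of 48, potassium channels with 24 of 196 and 17 of 177, and solute carriers with 47 of 569 and 42 of 527, beside 12.0% and 7.69% over all loci. In equal lists the olfactory receptors had 3 of 17 lost (17.6%, beside 28.6% as deposited). Genes of the protocadherin clusters overlap each other, so that their 5 gained loci fall within 34 genes.

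The strongest lost loci that had no shHNRNPU #2 summit within 1000 bp lay away from gene starts in most cases. This is no trait of the strongest, since the 1000 bp rule leaves out most lost loci at starts. Of all lost loci that met it, 4.44% were within 2000 bp of a start, against 12.5% of all lost loci. The first by rank lay between genes at chr16:22939939, 121467 bp from the start of USP31, with scores of 32.9 and 27.6 in shLUC repeats 1 and 2 and the nearest shHNRNPU #2 summit at 7572 bp. The second, chr17:75033874 in KCTD2, an adaptor of a ubiquitin ligase, was 1303 bp from the start and had scores of 28.7 and 28.9. Next by rank, at chr13:70432638 the scores were 25.8 and 24.0, with no protein-coding gene within 500 kb. At chr14:44149777, in the long non-coding RNA LINC02307, scores were 38.5 and 21.7, and no shHNRNPU #2 summit was called within 263165 bp. The others among the first 10 were in RIMS1, an organiser of presynaptic active zones, KIFC3, a kinesin, FAM227B and GALK2, in the long non-coding RNA PCDH10-DT, and near MC4R and MARCHF10, with scores of 18.8 to 41.7.

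The strongest gained loci of the same kind were weaker. The first, chr10:64120794, had scores of 16.6 and 20.9 in shHNRNPU #2 repeats 1 and 2 and no protein-coding gene within 500 kb. The next, chr3:40920215, lay 279290 bp from the start of CTNNB1, the beta-catenin gene, with scores of 15.7 and 16.4 and no shLUC summit within 12216 bp. The PHC2 locus given above came next. In MLXIPL, which encodes the glucose-responsive factor ChREBP, scores were 10.2 and 15.7, in CSMD1 11.6 and 12.3, and in TFPI, an inhibitor of coagulation, 21.1 and 12.1. The lowest percentile of score over the libraries holding it was 82.4 to 90.4 for the 10 lost loci and 63.8 to 80.3 for the 10 gained ones. All 20 kept their call at a match distance of 100 bp. They also kept it with lists of equal size, at 500 bp and with scores of at least 5. That was fixed in advance, as they were chosen for high scores and for lacking a neighbour within 1000 bp.

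Most lost and gained loci at gene starts had a summit of the lacking group close by. Within 500 bp of a start there were 368 lost loci, of which 284 (77.2%) had a summit of a shHNRNPU #2 library within 1000 bp, and 334 gained loci, of which 241 (72.2%) had a shLUC summit so close. Over all loci this was so for 1089 lost ones (21.9%) and 991 gained ones (34.3%), which left 3874 lost and 1894 gained. The strongest at starts were MOSPD3, with scores of 41.1 and 32.9 with shLUC and a shHNRNPU #2 summit at 252 bp, and EMD for the gained. All 10 lost and all 10 gained loci named at starts had such a neighbour, at 252 to 978 bp, and none kept its call when loci with a neighbour within 1000 bp were left out. At RABEP2 a lost locus with scores of 38.9 and 20.5 and a gained locus with scores of 36.0 and 37.1 lay 312 bp apart. At UBE2E3 a lost locus 7 bp from the start faced a gained one at 119 bp, and at PEG10, an imprinted gene, a lost and a gained locus lay 430 bp apart with scores of 36.0 and 43.1 against 44.5 and 44.0. In all, 189 lost loci had a gained locus within 1000 bp.

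Loci that all 4 libraries held also differed in rank by gene density. With lists of equal size there were 27252 such loci, and the score of each was ranked as a percentile within its library. In the densest class the mean percentile was 67.2 and 69.1 in shLUC repeats 1 and 2 and 70.9 and 72.0 in shHNRNPU #2. In the poorest class it was 63.7 and 62.3 with shLUC and 61.8 and 61.2 with shHNRNPU #2. The gap between the 2 classes was 3.56 and 6.79 points with shLUC and 9.08 and 10.8 with shHNRNPU #2, which do not overlap, a difference of 4.75 points (exact permutation p = 0.33). In the lists as deposited the difference was 4.71 points, and 2.96 without shLUC repeat 1. There the densest class had 70.9 and 72.1 with shLUC and 72.7 and 70.8 with shHNRNPU #2, which overlap. The poorest class had 67.2 and 65.8 against 64.3 and 59.8, which do not. With lists of equal size, the mean percentile near gene starts was 75.0 and 76.5 with shLUC and 78.5 and 79.2 with shHNRNPU #2. At intergenic loci it was 60.8 and 60.5 against 59.7 and 59.9. In the lists as deposited the groups overlapped near starts, with 78.0 and 79.1 against 80.0 and 78.4. At intergenic loci they did not, with 64.8 and 64.1 against 62.25 and 58.35.

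The shHNRNPU #1 libraries, which had no part in the calls, held fewer of the lost than of the gained loci. Lost loci had a summit in 31.8% of cases in repeat 1 and 38.2% in repeat 2, and gained loci in 54.4% and 57.9%. Loci of 1 shLUC and 1 shHNRNPU #2 library lay between, with 44.2% and 47.1%, and loci of all 4 libraries had 93.1% and 94.5%. With the lists of the 4 compared libraries cut to equal size and those of shHNRNPU #1 left uncut, lost loci had 35.5% and 42.3%. Gained loci then had 59.3% and 62.8%. The order turned when a shHNRNPU #2 library was left out, since a gained locus then needs 1 library and a lost one 2, with the gained share 15.2 points below the lost share without repeat 1 and 20.5 points below it without repeat 2.

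The labelled cell type was checked at the starts of marker genes. All 10 markers of pluripotent cells, POU5F1, SOX2, NANOG, LIN28A, LIN28B, DNMT3B, CRIPTO (also TDGF1), PRDM14, SALL4 and ZIC2, had a summit within 2000 bp of a start in 3 libraries, and DNMT3B lacked one in shHNRNPU #2 repeat 1. Of 10 markers of other cells, PAX6, SOX1, SOX17, GATA6, TBXT, MIXL1, CDX2, KRT7, COL1A1 and THY1, all had a summit in 3 libraries, and CDX2 lacked one in shLUC repeat 2. A summit at a start therefore does not tell these cell types apart. The best score at CDX2, a trophoblast regulator, was 4.33 and none with shLUC and 4.80 and 2.80 with shHNRNPU #2, and at POU5F1 25.4 and 23.0 against 22.8 and 37.8. A part of other cell types in the calls was not tested.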

How the data were processed

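Groups and repeat numbers came from the sample titles. The authors called peaks in each library and deposited 1 list of summits per library, each 1 bp wide, with a score that from its layout and values was taken as the −log10 q-value written by their peak caller, starting between 1.30 and 1.31 in every library, with no normalization between libraries. The submitters' processing notes name cutadapt, Bowtie2, SAMtools, MACS2, deepTools and hg38, and their settings are not given in the sources used here. Peaks were called per library. No read depth is held, and detection limits are therefore not stated. The article linked to the series describes other libraries and served for style only.

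Loci, lost and gained loci were made as described above. Genes were those of RefSeq GRCh38.p14, with 20037 protein-coding genes. For the 15842 of them with an annotated promoter window its start was used, and for the other 4195 either end of the gene. Gene density counted midpoints of protein-coding genes within 500 kb. Library means were compared by two-sided exact permutation over 6 assignments. Libraries were not paired by repeat number, since the labels do not say that equal numbers mark a shared culture. Rank deviations between repeats at loci of all 4 libraries were not shared by the groups (correlation 0.0029). That correlation cannot tell whether repeats of the same number were made together. At most 2.20% of summits shared their exact position between any 2 libraries, so no library was a copy of another. Intervals are Wilson 95% intervals. Named items were the 10 lost and 10 gained loci of highest lowest percentile with no lacking-library summit within 1000 bp, the same within 500 bp of a start, the 5 genes and 3 windows with most lost and gained loci, the chromosomes at either end, and the members of the lists, of which a few are not reported here. The members and lists were chosen with earlier results of these data known. The grouping was checked on simulated summits whose loci were known. Alternatives were lists of equal size, a score of at least 5, match distances of 100 and 500 bp, absence within 1000 bp, 500 bp to a start, density within 1000 kb, autosomes only, omitting each library in turn and permutation within repeats. Those chosen after seeing the data were 2 other rules for gene starts, equal lists together with absence within 1000 bp, and single library pairs. Python 3.11.15 was used with statsmodels 0.14.6, matplotlib 3.10.9, scipy 1.17.1, numpy 2.4.6 and pandas 2.3.3.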

Additional observations from a re-analysis of the deposited data

How the results depend on the processing

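The differences between groups in summit number, share near starts, gene density and ranks at shared loci kept their direction under every alternative run for them, except that equal list sizes fix the number of summits at a difference of 0. No 2 against 2 comparison can pass a threshold of 0.05. Counts and shares of lost and gained loci moved more. With a score of at least 5 there were 3257 lost and 1844 gained loci, and 25.9% of gained loci were near a start. With absence judged within 1000 bp, gained loci numbered 1894, the share near a start was 4.44% of lost and 10.3% of gained loci, and the densest class held 10.1% and 21.3%. With equal lists and absence within 1000 bp together, 2961 loci were lost, 4.73% of them near a start and 10.6% in the densest class, and 11.1% of gained loci were near a start. At a match distance of 100 bp the shares near a start were 17.6% of lost and 27.1% of gained loci and the densest class held 15.3% of lost loci, and at 500 bp these were 9.03%, 16.2% and 12.0%. Equal lists put 13.7% of lost loci near a start. Within 500 bp of a start were 7.42% of lost and 11.6% of gained loci, and using only genes with an annotated start gave 10.0% and 15.3%. Density within 1000 kb put 24.6% of gained loci in the densest class.

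Leaving out 1 library changes the definition, as the group left with 1 library has to meet a weaker condition. Lost loci then numbered 8449 to 17630 and gained loci 5888 to 13587. Near a start were 10.9% to 17.1% of lost and 13.9% to 22.9% of gained loci, and in the densest class 11.9% to 15.9% and 16.6% to 23.6%. The difference in share near starts was 1.58 to 4.54 points, in density 0.50 to 1.14 genes, in summits -9614 to -3368 and in rank at shared loci 2.96 to 6.26 points. The share of gained minus lost loci held by shHNRNPU #1, 21.1 points with all libraries, was -20.5 to 45.3 points, with 44.6 and 45.3 without a shLUC library and -15.2 and -20.5 without a shHNRNPU #2 library. With the replicate block, permuting within repeats, the differences of -6491 summits, 3.06 points and 0.82 genes had an exact permutation p of 0.5, the smallest that 2 pairs allow, and since the repeats share only a number this says nothing on the size of the effect.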
